A study of Drosophila melanogaster with 8 samples.

Results

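The proteasome is the barrel-shaped protease that destroys proteins tagged with ubiquitin, and its subunit genes were followed here in larval macrophages of Drosophila melanogaster on a control and a high-sugar diet. Members were chosen by gene symbol: every gene whose FlyBase symbol begins with Prosalpha, Prosbeta, Rpt or Rpn followed by a digit. The gene name table holds 48 such genes, of which 38 had a row among the 11769 genes of the counts table and 34 had enough counts to be tested. Of the 48, 32 are the ubiquitous subunits, whose symbol ends with the subunit number, and 16 are paralogs whose symbol carries a further T or R. The ubiquitous set comprises 14 genes of the 20S core particle and 18 genes of the 19S regulatory particle. It lies scattered over the genome, with 10 genes on chromosome arm 2R, 9 on 3R, 5 on 3L and 4 each on 2L and X.

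The libraries came from hemocytes sorted for green fluorescence from larvae that carry hmlΔ>2xeGFP, a reporter driven by the promoter of the hemocyte gene Hemolectin, in a background labelled wild-type. Controls (CD) fed on sucrose and yeast medium, and the high-sugar group (HSD) on that medium with 10x sucrose added. Third-instar larvae were bled at 96 h after egg laying, 5 per collection, and 20000 cells were sorted for each of 8 poly(A) RNA libraries. The CD libraries carry the replicate numbers 1, 3, 4 and 5, those of HSD the numbers 1 to 4. The sex of the larvae is not given in the sources used here, nor whether replicates came from separate cultures, so the p-values rest on the variation among these libraries, some of which may be technical.

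The core particle is a stack of rings built from 7 alpha and 7 beta subunits. Of the beta subunits, Prosbeta1, Prosbeta2 and Prosbeta5 carry the active sites that cut after acidic, basic and hydrophobic residues, and the alpha ring forms the gate. The regulatory particle caps the core: a ring of 6 Rpt ATPases unfolds substrates and threads them inward, the large base subunits Rpn1 and Rpn2 form a scaffold, Rpn1, Rpn10 and Rpn13 bind ubiquitin or its carriers, and Rpn11 in the lid removes ubiquitin before a substrate enters. In flies several subunits have a second gene used mainly in the testis.

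Total counts per library ran from 20817891 to 24733521, and a ubiquitous subunit gene held between 2414 and 10490 counts in any library. Levels are in CPM, a gene's count scaled to the library size after TMM, a method that sets aside the most divergent genes; SE is the standard error of a log2 fold change. Markers of hemocyte types moved with diet: 5 of 6 plasmatocyte (mature macrophage), 4 of 4 crystal cell and 3 of 4 lamellocyte markers rose on HSD, and none fell. Of all genes tested, 14.4% were called higher and 11.6% lower. The plasmatocyte markers, all present, summed to 47419 to 55639 CPM in CD and 70150 to 79724 CPM in HSD, with Hml at 16886 ± 1921 CPM in CD and 20793 ± 1794 CPM in HSD (SD, n = 4 each). The crystal cell markers summed to 22777 to 26956 CPM in CD and 29151 to 44448 CPM in HSD. The lamellocyte markers summed to 258 to 336 CPM in CD and 317 to 339.8 CPM in HSD, nearly all of it mys, while the defining markers atilla and ItgaPS4 averaged 0.204 and 0.0218 CPM in CD and 6.04 and 3.26 CPM in HSD. The part of these markers in the subunit results was not tested. Markers of fat body and muscle summed to at most 32.9 and 13.3 CPM in any library. On the TMM scale a pair of libraries stood apart in the subunit genes before any comparison between diets: 29 of the 32 ubiquitous genes were highest among the CD libraries in CD replicate 1, and 25 were highest among the HSD libraries in HSD replicate 4. These ranks were not counted over all genes. As a share of all counts the 32 genes differed less in CD, with 0.716% in CD replicate 1 and 0.668% to 0.706% in the other CD libraries. HSD replicate 4 had 0.594%, and the other HSD libraries 0.537% to 0.564%. CD replicate 1 stood apart in the counts as a whole too. Its chi-square per degree of freedom, which grows with the difference between 2 libraries, was 114 to 118 against each other CD library. Among CD replicates 3, 4 and 5 this measure was 7.19 to 18.4. Pairs with HSD replicate 4 had 28.1 to 60.4, and the other HSD pairs at most 33.4. HSD replicate 4 also had the lowest crystal cell sum of its diet, 29151 CPM against 40333 to 44448 CPM in the other HSD libraries. CD replicate 1 had the lowest plasmatocyte sum of its diet, 47419 CPM against 52092 to 55639 CPM, and the lowest lamellocyte sum, 258 CPM against 321 to 336 CPM.

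Of the 34 proteasome subunit genes tested, 12 fell on HSD and none rose, and the estimated differences were small. The estimated log2 fold change was below 0 for 32 of 32 ubiquitous subunits, from −0.04 in Prosbeta1 to −0.28 in Rpn2, with a median of −0.14 that corresponds to a 9.33% lower level. The 12 calls were made at an adjusted p under 0.05 (edgeR quasi-likelihood test, Benjamini-Hochberg over 7844 genes). They are 35.3% of the members tested, where 26.0% of all genes tested were called, 11.6% as lower and 14.4% as higher. Without adjustment 19 members were lower and 0 higher at p under 0.05, where 18.1% of all genes were lower and 19.4% higher. DESeq2 called 13 members lower and 0 higher, with 13.1% of all genes lower, and limma-voom 19 and 0, with 18.2% of all genes lower. The count was 6 without HSD replicate 1 or 2 (8.47% and 8.68% of all genes lower) and 20 without HSD replicate 4 (10.1% of all genes). Without CD replicate 1 the median over the members was −0.09. The median over all genes tested was −0.01, and among the other 742 genes with a mean level inside the subunits' range, 19.1% were called lower and 22.0% higher. Among themselves the fold changes of the ubiquitous subunits had an SD of 0.0571, and those of the 742 genes an SD of 0.371; the subunits share the shifts of CD replicate 1 and HSD replicate 4. Being bulk measurements, they cannot tell fewer cells of a type from less RNA per cell.

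**Figure D1:**
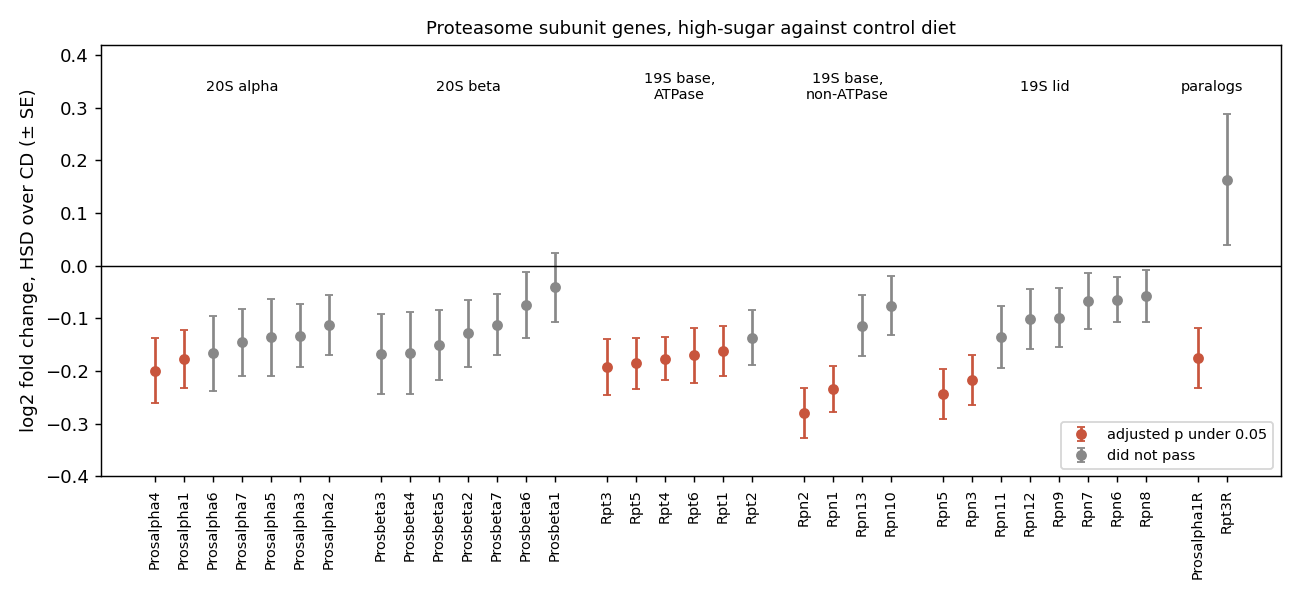
Log2 fold change (HSD over CD, y axis, with standard errors as bars) of the 34 tested proteasome subunit genes (x axis), grouped by position in the complex; red points passed the adjusted threshold. The 32 ubiquitous subunits lie below 0, and 5 of 6 Rpt ATPases passed against 0 of 7 beta subunits.

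Taken as a sum, the 32 ubiquitous genes made up 0.668% to 0.716% of all counts in the CD libraries and 0.537% to 0.594% in the HSD libraries, without overlap. On the TMM scale the diets met at the edge: HSD replicate 4 reached 6298 CPM, within the CD range of 6264 to 7062 CPM, while the other HSD libraries summed to 5683 to 5893 CPM. In HSD replicate 1 the level lay below that of every CD library in 30 of the 32 genes, in HSD replicates 2 and 3 in 28 each, and in HSD replicate 4 in 11. These counts per library were not made over all genes, so no share stands beside them. In 10 of the 32 genes (31.2%) no HSD library overlapped the CD libraries, all with HSD below, where 12.9% of all genes tested were separated in that direction and 15.1% with HSD above. The size of the difference depended on the scaling. With library size alone the median of all genes moved from −0.01 to −0.17 and that of the members from −0.14 to −0.30, and 33 of the 34 members were then called lower, beside 40.3% of all genes. Relative to the median gene, the median ubiquitous subunit stood at −0.14 with TMM and at −0.13 with library size alone.

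**Figure D2:**
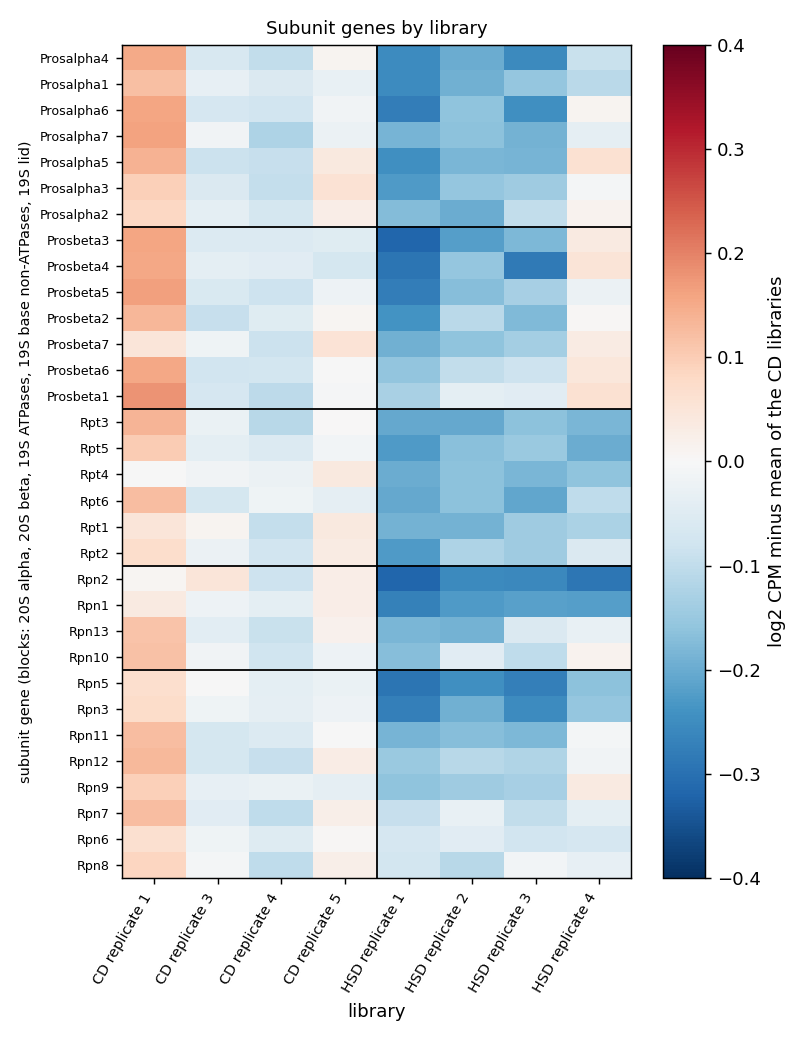
Each of the 32 ubiquitous subunit genes (rows, in blocks by position in the complex) in each of the 8 libraries (columns), coloured by log2 CPM minus the mean of the CD libraries. HSD replicates 1 to 3 are blue in nearly every row, CD replicate 1 is red in most, and HSD replicate 4 is close to white in the 20S blocks but blue for Rpn1 and Rpn2.

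The scaffold subunits of the 19S base both fell, Rpn2 by the most of any subunit. Rpn2, on chromosome 3R, stood at 339, 349, 319 and 343 CPM in CD replicates 1, 3, 4 and 5 and at 271, 283, 282 and 276 CPM in HSD replicates 1 to 4. The diets were far from touching, and HSD replicate 4 behaved like its fellows. On the log2 scale the difference was −0.28 (SE 0.047, edgeR adjusted p = 0.00077), a 17.6% lower level. Rpn1, on 3L, its partner in the scaffold and a dock for ubiquitin carriers, measured 317, 305, 301 and 315 CPM in CD and 257, 265, 266 and 266 CPM in HSD. Again every HSD library lay below every CD library, with a log2 fold change of −0.23 (SE 0.0436, edgeR adjusted p = 0.0016). The ubiquitin receptor genes of the base, Rpn10 and Rpn13, had log2 fold changes of −0.08 and −0.11 and did not pass (edgeR adjusted p = 0.358 and 0.173), with overlapping diets.

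Among the Rpt ATPases 5 of 6 fell (83.3%, beside 11.6% of all genes). The remaining one, Rpt2, missed the threshold (log2 fold change −0.14, edgeR adjusted p = 0.0704; 0.0423 without HSD replicate 4, over all alternatives 0.00061 to 0.439). The fold changes of the 6 ATPase genes lay within a narrow band, from −0.14 to −0.19. Rpt4, on the X chromosome, was the tightest, at 240.1, 238, 236 and 247 CPM in CD and 209, 214, 211 and 215 CPM in HSD. The spread within either diet was small beside the gap between them (log2 fold change −0.18, SE 0.0408, edgeR adjusted p = 0.0066). Rpt5, on 3R, had the lowest level per exonic length of the whole complex, and read 147, 134, 132 and 136 CPM in CD and 117, 122, 124 and 119.6 CPM in HSD. The diets were separate there too (log2 fold change −0.19, SE 0.0484, edgeR adjusted p = 0.0132).

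The remaining ATPases that fell were Rpt3, Rpt6 and Rpt1. Rpt3 stood at 231, 206, 194 and 210.3 CPM in CD and at 182, 182, 187 and 185 CPM in HSD (log2 fold change −0.19, edgeR adjusted p = 0.0191). Rpt6 stood at 173, 151, 157 and 155 CPM in CD and at 137, 142, 137 and 148 CPM in HSD (log2 fold change −0.17, edgeR adjusted p = 0.0307). Rpt1 stood at 267, 260.2, 242 and 265 CPM in CD and at 227, 226, 234 and 237 CPM in HSD (log2 fold change −0.16, edgeR adjusted p = 0.0238). In each of these 3 genes the lowest CD library still exceeded the highest HSD library. The Rpt6 exons share 13.0% of their length with CG1801 on the opposite strand, and only Rpn9 shared more among the ubiquitous genes, at 15.7%. Whether reads of such stretches were told apart is not known. The kit is not described as strand-specific, and the strand setting is not given.

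In the lid 2 of 8 genes fell (25%, beside 11.6% of all genes). Rpn5, on 3R, measured 213, 203, 198 and 199 CPM in CD and 166, 171, 168 and 181 CPM in HSD. Its diets did not overlap, and the difference was −0.24 on the log2 scale (SE 0.0472, edgeR adjusted p = 0.0021). Rpn3, on 2L, measured 185, 174, 171 and 174 CPM in CD and 146, 154, 148 and 158 CPM in HSD, with a log2 fold change of −0.22 (SE 0.0474, edgeR adjusted p = 0.0045). Both encode structural subunits of the lid horseshoe. The 6 other lid genes did not pass and overlapped between diets. They include Rpn11, the deubiquitinase (log2 fold change −0.14, edgeR adjusted p = 0.11), Rpn6 (−0.06, SE 0.0429, edgeR adjusted p = 0.301), Rpn7 (−0.07) and Rpn8 (−0.06).

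In the 20S core the estimates were of like size but fewer genes passed. Of the 14 core genes 2 fell (14.3%) and of the 18 regulatory genes 9 fell, against the 11.6% of all genes, yet the median log2 fold changes were −0.14 and −0.15. The difference between the particles was not tested. The median SE was 0.0633 in the core and 0.0508 in the regulatory particle. CD replicate 1 lay above its diet's mean by 0.136 on the log2 scale over the core genes and by 0.0843 over the regulatory genes, and HSD replicate 4 by 0.141 and 0.0506. With both of those libraries left out, 12 of 14 core and 12 of 18 regulatory genes were called lower, beside 16.3% of all genes. On the TMM scale both libraries stood apart in these same genes, so leaving them out narrows the spread within diets. The median SE was then 0.0422 in the core and 0.0406 in the regulatory particle, and the higher counts are no separate support. The core count was 8 without HSD replicate 4 (10.1% of all genes) and 1 without CD replicate 3 (8.34%). It was 0 when CD replicate 5 (8.55%) or one of HSD replicates 1 to 3 (8.47%, 8.68% and 9.76%) was left out. With limma-voom, whose quality weights count deviating libraries less, it was 7, beside 18.2% of all genes. The part of the hemocyte markers in these differences was not tested either.

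The catalytic subunits were among the genes that did not pass. Prosbeta5, on 2R, the chymotrypsin-like subunit, stood at 198, 170, 167 and 175 CPM in CD and at 146, 157, 162 and 174 CPM in HSD. HSD replicate 4 reached into the CD range, and the difference was −0.15 on the log2 scale (SE 0.0669, edgeR adjusted p = 0.119). Prosbeta2, on 3L, the trypsin-like subunit, stood at 218, 186, 192 and 199.7 CPM in CD and at 168, 184, 176 and 199.3 CPM in HSD (log2 fold change −0.13, SE 0.0638, edgeR adjusted p = 0.163). Its highest HSD value exceeded all CD values but those of replicates 1 and 5. Prosbeta1, on 2R, the caspase-like subunit, stood at 198, 167, 162 and 174 CPM in CD and at 159.5, 169.9, 169.2 and 182 CPM in HSD, so that the diets were interleaved. Its log2 fold change of −0.04 (SE 0.0655, edgeR adjusted p = 0.689) was the smallest of the complex and became 0.03 without CD replicate 1. In the beta ring as a whole 0 of 7 genes passed in edgeR and in DESeq2, beside 11.6% and 13.1% of all genes called lower. At an unadjusted edgeR p under 0.05, 2 were lower, beside 18.1% of all genes, and limma-voom called 3 lower, beside 18.2%.

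In the alpha ring 2 of 7 genes fell (28.6%, beside 11.6% of all genes). Prosalpha4, on the X chromosome, measured 244, 209.96, 205 and 221 CPM in CD and 184, 191, 184 and 206 CPM in HSD (log2 fold change −0.20, SE 0.0617, edgeR adjusted p = 0.0309). The HSD replicate 4 value just exceeded that of CD replicate 4, so this was the only ubiquitous gene called lower whose diets overlapped. Prosalpha1 measured 435, 392, 385 and 393 CPM in CD and 336, 351, 360.4 and 372 CPM in HSD (log2 fold change −0.18, SE 0.0557, edgeR adjusted p = 0.0333), without overlap. The other 5 alpha genes had log2 fold changes from −0.11 in Prosalpha2 to −0.17 in Prosalpha6.

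**Figure D3:**
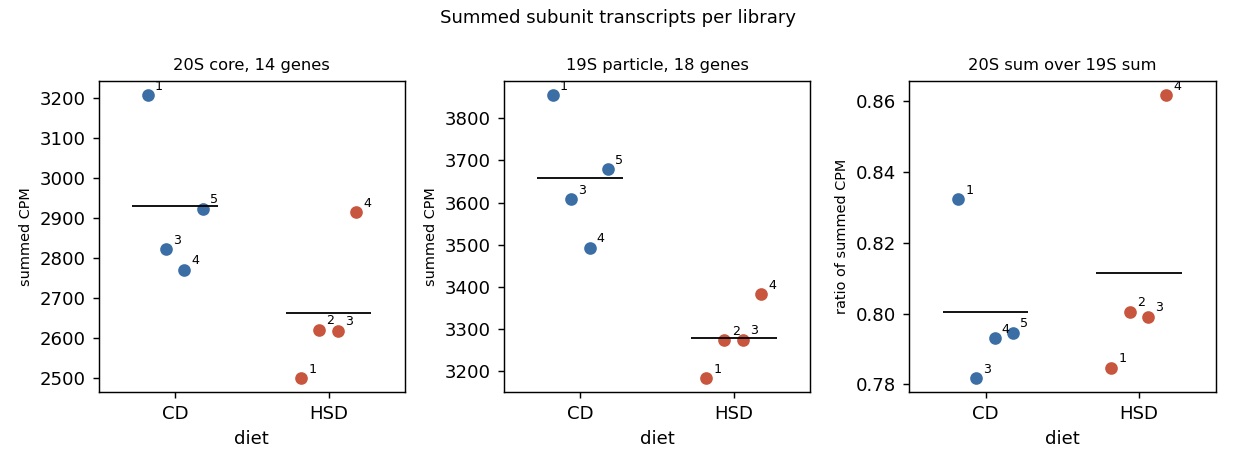
Summed CPM of the 14 core genes (left) and the 18 regulatory genes (middle), and the ratio of the sums (right), for each library by diet; numbers beside points are replicate numbers, lines are means of 4 libraries and the y axes do not start at 0. The regulatory sums of the diets do not overlap (3184 to 3383 CPM in HSD, 3493 to 3854 CPM in CD), the core sums do, and the ratio is highest in HSD replicate 4 and CD replicate 1.

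The balance of core to regulatory transcripts did not separate the diets. The ratio of summed CPM was 0.832, 0.782, 0.793 and 0.795 in CD replicates 1, 3, 4 and 5 and 0.785, 0.801, 0.799 and 0.862 in HSD replicates 1 to 4. HSD replicates 1 to 3 lay inside the CD range, and the highest values of the 2 diets were those of HSD replicate 4 and CD replicate 1.

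Of the 12 members that fell, 6 stayed past the threshold when any 1 of the 8 libraries was left out: Rpn1, Rpn2, Rpn3, Rpn5, Rpt4 and Rpt5 (edgeR adjusted p from 0.00043 to 0.0444). The other 6 each lost the call in at least 2 of those fits, with adjusted p up to 0.122. Rpt3 lost it without HSD replicate 1 or 2 (0.0558 and 0.0562). Rpt1 lost it when CD replicate 3, CD replicate 5, HSD replicate 1 or HSD replicate 2 was left out (0.0681, 0.0758, 0.0745 and 0.0756). Rpt6 did so for CD replicate 1, CD replicate 4 and HSD replicates 1 to 3 (0.0552, 0.0522, 0.085, 0.0662 and 0.0795). Prosalpha4 did so for CD replicate 5 and HSD replicates 1 to 3 (0.0725, 0.0949, 0.0741 and 0.0907). Prosalpha1 did so for CD replicate 3, CD replicate 5 and HSD replicates 1 to 3 (0.058, 0.0581, 0.106, 0.0859 and 0.0604). Prosalpha1R did so for CD replicates 1, 3 and 5 and HSD replicates 1 to 3 (0.0507, 0.0614, 0.0775, 0.122, 0.0971 and 0.0761).

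Prosalpha1 and Prosalpha1R form the pair of genes whose counts are least certain. They lie on the same strand of chromosome 2R, Prosalpha1 from 7827303 to 7828678 and Prosalpha1R from 7830413 to 7831771 in the dm6 assembly, 1734 bases apart, and encode the first alpha subunit. Despite its R suffix Prosalpha1R was as abundant as a ubiquitous subunit. It measured 402, 358, 350.4 and 366 CPM in CD and 309, 323, 329.6 and 345 CPM in HSD, and it fell with its neighbour (log2 fold change −0.18, SE 0.0572, edgeR adjusted p = 0.0395). The ratio of Prosalpha1 to Prosalpha1R counts was 1.07 to 1.10 in every library of both diets. Together they reached 802 CPM per exonic kilobase in CD, where the other 6 alpha genes had 165 to 235. How reads that match both genes were counted is not given in the sources used here, so the sum and its split are uncertain.

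Levels per exonic length differed between the particles. The median core gene had 196 CPM per exonic kilobase in CD and 178 in HSD, and the median regulatory gene 118 and 112, a ratio of 1.66 in CD and 1.60 in HSD. Only the regulatory genes Rpt1 and Rpt4 exceeded the lowest core gene, Prosbeta5. Prosalpha1 led in CD at 414 ± 23.7 CPM per kilobase, followed by Prosbeta6 at 237 ± 18.3, Prosalpha7 at 235 ± 19.7 and Prosalpha3 at 220.4 ± 13.8 (SD, n = 4). The place of Prosalpha1 is uncertain, because the handling of reads that also match Prosalpha1R is not given. Rpt5 was last at 84.4 ± 4.24 CPM per kilobase in CD and 74.2 in HSD, after Rpn3 at 96.1 ± 3.42 in CD. In the order of CD levels, neighbours differed by more than the larger of their SDs in 6 of 31 pairs: below Prosalpha1, below Prosbeta5, below Rpn10, between Rpn6, Rpn5 and Rpn9, and above Rpt5. The other neighbours cannot be ranked on these libraries. Core exons are shorter, with a median of 971 bases against 1589 in the regulatory particle, and across the 32 genes the log2 fold change and exonic length had a Spearman rho of −0.30, given as a description, since the genes share their libraries. Over all genes tested, those called lower made up 3.84% of the 1951 genes with the shortest exonic length and 18.8% of the 1951 with the longest, and the part of length in the members' calls was not tested.

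**Figure D4:**
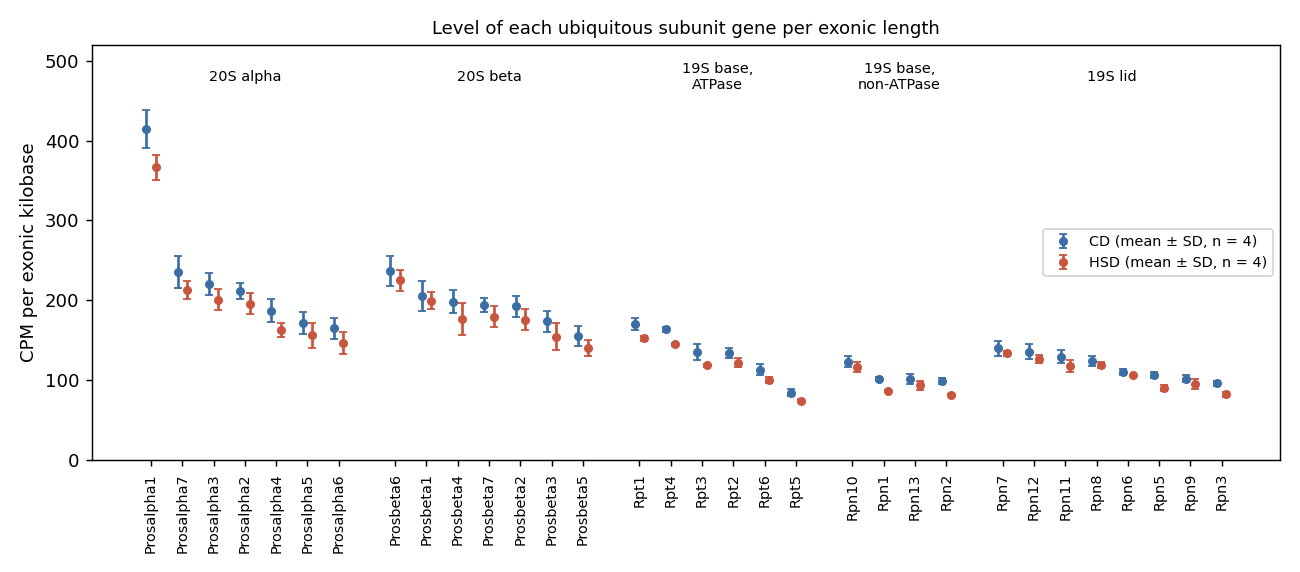
CPM per exonic kilobase (y axis, from 0) of the 32 ubiquitous subunit genes (x axis, grouped by position in the complex and ordered by CD level), as mean and SD of 4 libraries per diet. Core genes mostly lie above regulatory genes, Prosalpha1 stands alone at the top at 414 in CD, and HSD means are below CD means. The level of Prosalpha1 is uncertain, because the handling of reads that also match Prosalpha1R is not given.

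The testis-type paralogs were close to absent. Among the 16 paralogs, 10 were not analysed here for want of a row, and 4 of the 6 others did not pass the filter on low counts: Rpt6R, Prosbeta2R2, Prosbeta4R1 and Prosbeta5R2 held 73, 20, 6 and 2 counts summed over the 8 libraries. Rpt3R, a paralog of the ATPase gene Rpt3 on 3R, was the exception besides Prosalpha1R, with 86 to 108 counts in each library. It measured 4.31, 3.66, 3.89 and 4.19 CPM in CD and 4.99, 4.22, 4.48 and 4.26 CPM in HSD. The diets overlapped, and the log2 fold change of 0.16 did not pass (SE 0.124, edgeR adjusted p = 0.37). Per exonic kilobase Rpt3R reached 2.04% of the level of Rpt3 in CD and 2.61% in HSD, Rpt6R 0.208% and 0.334% of that of Rpt6. The differentiation products of the male germ line were likewise near 0, with 8 counts of betaTub85D, 3 of dj and 30 of Mst98Ca over all libraries. The testis list as a whole summed to 29.6 to 34.9 CPM in either diet, most of it from mia at 20.5 ± 1.70 CPM in CD, and its cell cycle phosphatase gene twe fell (log2 fold change −0.43, edgeR adjusted p = 0.0192), a call lost without CD replicate 3, CD replicate 4 or HSD replicate 1 (0.0593, 0.0572 and 0.0556).

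Among 7 genes of proteasome assembly, activation and regulation 2 fell and none rose (28.6%, beside 11.6% of all genes). Both encode deubiquitinases that sit on the 19S particle. Uch-L5, which binds Rpn13, stood at 100.4, 89.5, 92.4 and 98.6 CPM in CD and at 76.7, 82.5, 78.0 and 85.8 CPM in HSD. The diets did not overlap (log2 fold change −0.24, SE 0.0558, edgeR adjusted p = 0.0072). Usp14, which binds Rpn1, stood at 165, 146, 143 and 145 CPM in CD and at 128, 134, 126 and 136 CPM in HSD, also without overlap (log2 fold change −0.19, edgeR adjusted p = 0.0208). The Usp14 call was lost without HSD replicate 1 or 3 (0.0594 and 0.061; over all alternatives 0.00017 to 0.175).

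The other 5 genes of that list did not pass. The core assembly chaperone gene Pomp measured 96.3, 85.6, 84.9 and 88.4 CPM in CD and 78.4, 76.0, 79.7 and 93.8 CPM in HSD, where replicate 4 alone reached the CD range (log2 fold change −0.12, edgeR adjusted p = 0.253; 0.0336 without that library, over all alternatives 0.0058 to 0.682). Its exons share 40.0% of their length with vari on the opposite strand. The lid component Sem1 had a log2 fold change of −0.08, which was 0.01 without CD replicate 1, and ntc, an F-box gene, one of −0.23 (edgeR adjusted p = 0.317). REG, the fly form of the 11S activator, stood at 247 ± 5.62 CPM in CD and 253 ± 8.37 CPM in HSD, a log2 fold change of 0.04 (SE 0.0447, edgeR adjusted p = 0.599), and PI31, which binds the core, also had one of 0.04. With library size only these became −0.13 (edgeR adjusted p = 0.0352, over all alternatives 0.0352 to 0.985) and −0.12, and PI31 was at −0.02 without HSD replicate 4.

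Genes that supply ubiquitin and deliver substrates were mixed, with 4 of 11 lower and 2 higher, beside 11.6% and 14.4% of all genes. The shuttle factor gene Ubqn measured 247, 264, 262 and 262 CPM in CD and 232, 236, 226 and 218 CPM in HSD. The diets did not overlap, although CD replicate 1 was the lowest of its diet here (log2 fold change −0.18, SE 0.0463, edgeR adjusted p = 0.0112). The gene p47, for a cofactor of the segregase TER94, measured 152, 139, 129.4 and 137 CPM in CD and 116, 117, 114 and 129.7 CPM in HSD. The value of HSD replicate 4 just exceeded that of CD replicate 4 (log2 fold change −0.23, edgeR adjusted p = 0.0142).

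Uba1, the enzyme that activates ubiquitin, and TER94, known as VCP or p97, passed by less. Uba1 averaged 579.6 ± 16.1 CPM in CD and 521 ± 10.8 CPM in HSD (log2 fold change −0.15, edgeR adjusted p = 0.0291), without overlap. The call was lost when any library but CD replicate 1 and HSD replicate 3 was left out (0.0588 to 0.0939). TER94 averaged 694 ± 26.1 CPM in CD and 626 ± 19.98 CPM in HSD (log2 fold change −0.15, edgeR adjusted p = 0.0442), also without overlap, and its call was lost without any library but CD replicate 1 (0.0619 to 0.12). Rad23, Ufd1 and Npl4, which carry or extract substrates, had log2 fold changes of −0.06, −0.09 and −0.08 and did not pass.

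The 2 genes called higher encode ubiquitin fused to a ribosomal protein. RpS27A measured 1641, 1365, 1393 and 1408 CPM in CD and 1742, 1791, 1876 and 1989 CPM in HSD. The lowest HSD library exceeded the highest CD library, CD replicate 1 (log2 fold change 0.35, SE 0.0667, edgeR adjusted p = 0.0019). RpL40 measured 1358, 1182, 1175 and 1227 CPM in CD and 1478, 1582, 1540.3 and 1636 CPM in HSD (log2 fold change 0.34, edgeR adjusted p = 0.00097). The polyubiquitin genes Ubi-p63E and Ubi-p5E, which encode ubiquitin alone, had log2 fold changes of −0.15 and −0.09 and did not pass (edgeR adjusted p = 0.1 and 0.589). The value of Ubi-p5E was 0.06 in the 6 libraries whose replicate numbers both diets share.

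**Figure D5:**
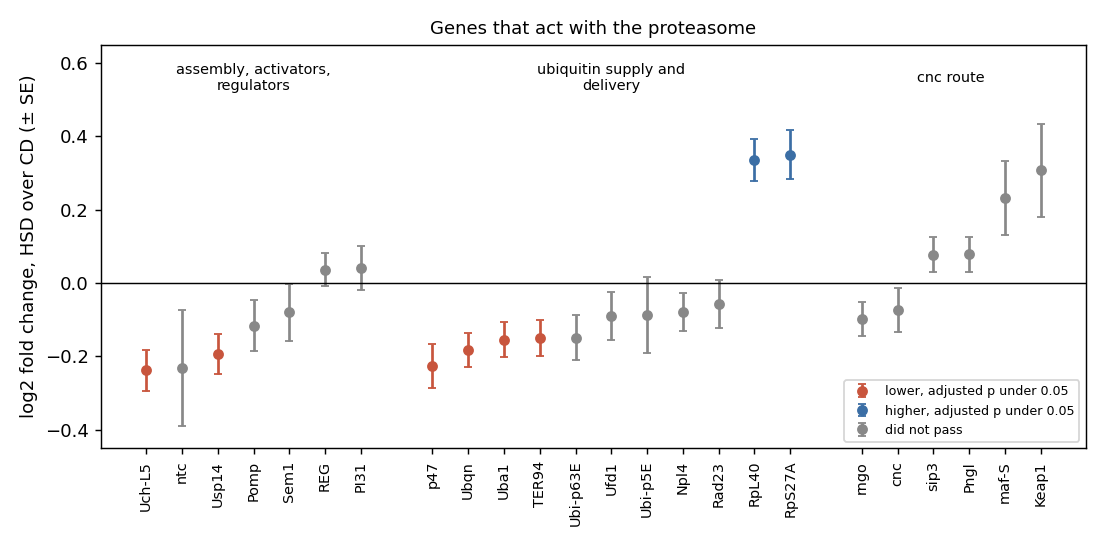
Log2 fold change (HSD over CD, y axis, with standard errors as bars) of 24 genes that act with the proteasome (x axis), in 3 lists; red points passed the adjusted threshold as lower and blue points as higher. Uch-L5 and Usp14 passed as lower in the first list and p47, Ubqn, Uba1 and TER94 in the next, and RpS27A and RpL40 are the only ones higher.

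The transcription factor cnc, the fly member of the Nrf family whose mammalian relative Nrf1 switches on proteasome genes when the protease is impaired, was measured with 5 genes of its route. None of the 6 passed in the main edgeR fit or in DESeq2. At an unadjusted edgeR p under 0.05, 2 were higher and none lower, beside 19.4% and 18.1% of all genes. Limma-voom called 1 higher and none lower, beside 1502 of 7844 genes higher. An edgeR fit with a replicate block also called 1 higher and none lower, beside 587 of 7860 genes higher. The level of cnc was 129, 150.1, 153 and 154 CPM in CD and 146, 135, 139 and 137 CPM in HSD. The low value of CD replicate 1 made the diets overlap (log2 fold change −0.07, SE 0.0602, edgeR adjusted p = 0.407), and without that library cnc was called lower (0.0498; over all alternatives 0.0166 to 0.881). The cnc partner gene maf-S and its inhibitor gene Keap1 had log2 fold changes of 0.23 and 0.31 (edgeR adjusted p = 0.114 and 0.0978). The maf-S level was called higher without CD replicate 1 (0.0034; over all alternatives 0.0034 to 0.542) and that of Keap1 without CD replicate 5 (0.0203; over all alternatives 0.0092 to 0.41). The gene rngo, the fly Ddi1 protease, had a log2 fold change of −0.10 (edgeR adjusted p = 0.144), Pngl, the N-glycanase, 0.08 and sip3, a ubiquitin ligase of the endoplasmic reticulum, 0.08. With library size only, those of Pngl and sip3 were −0.08 and −0.09.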

How the data were processed

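The authors deposited a table of whole-number read counts for each gene, which were not normalized. The submitters' processing notes name Trim Galore 0.6.7, STAR 2.7.10a, featureCounts and the dm6 build. The featureCounts version, the strand setting and the handling of multiply mapped reads do not appear in the sources used here. Every column matched 1 sample, and no library pair of a diet was identical. The smallest total of a listed gene was 2 counts. Symbols came from the gene name table, which named 11698 of 11769 identifiers, and Ensembl 115, on that build, gave coordinates, exonic lengths and exon sharing. No genome, transcript or protein sequence was used here.

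Counts were tested with edgeR 4.0.16 in R 4.3.3: filterByExpr (minimum count 10, 7844 genes with 99.957% of counts), TMM, robust quasi-likelihood with diet as the only term, Benjamini-Hochberg over all genes tested, threshold 0.05. Each SE was the size of the log2 fold change over the square root of its F statistic. The members and lists were chosen with earlier results of these data known. Values in every library are given for members past the threshold (up to 10 by smallest p), the catalytic subunits, the most and least abundant subunits and paralogs of at least 1 CPM; of each pathway list, for up to 4 members past the threshold, cnc and Pomp. The model was tested on simulated data. Alternatives were scaling by upper quartile, RLE or library size only, omitting the filter or a stricter one (5 CPM in 4 libraries), DESeq2 1.42.0, limma-voom (limma 3.58.1), a replicate block, omission of each library and of the pair CD replicate 1 and HSD replicate 4, and a threshold of 0.1.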

Additional observations from a re-analysis of the deposited data

Results flagged for a closer look

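Of 142 values checked in 4 libraries of a diet, 18 had 1 library far from the other 3 by Dixon's criterion, which flags about 1 in 20 groups by chance. In 9 of them the library was CD replicate 1 and in 5 HSD replicate 4. Where CD replicate 1 was highest, it measured 435 CPM in Prosalpha1 against 385 to 393 CPM in the other CD libraries, 177 CPM in Prosbeta3 against 153 CPM in each of the others, 179 CPM in Prosbeta4 against 154 to 157 CPM, 185 CPM in Rpn3 against 171 to 174 CPM, 183 CPM in Rpn9 against 167 to 168 CPM, 165 CPM in Usp14 against 143 to 146 CPM and 1641 CPM in RpS27A against 1365 to 1408 CPM. CD replicate 1 was lowest in cnc, at 129 CPM against 150.1 to 154 CPM, and in Ubqn, at 247 CPM against 262 to 264 CPM. HSD replicate 4 was highest in Prosalpha7, at 224 CPM against 201 to 204 CPM in the other HSD libraries, in Rpn11, at 155 CPM against 137 to 139 CPM, in Rpn9, at 175 CPM against 153 to 156 CPM, in p47, at 129.7 CPM against 114 to 117 CPM, and in PI31, at 64.5 CPM against 54.7 to 55.7 CPM. HSD replicate 1 was lowest in Rpn1, at 257 CPM against 265 to 266 CPM. The sum of the 4 crystal cell markers was lowest in CD replicate 5, at 22777 CPM against 26591 to 26956 CPM. The lamellocyte gene atilla was highest among the CD libraries in CD replicate 5, at 0.635 CPM against 0 to 0.0947 CPM, and ItgaPS4 in CD replicate 4, at 0.0874 CPM against 0 in the others.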

How the results depend on the processing

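The number of subunit genes called lower, 12 in the report, was 10 to 13 with RLE or upper quartile scaling, no or a stricter filter, DESeq2 or a threshold of 0.1. Of all genes, 11.9% were lower with RLE, 11.5% with upper quartile, 7.76% with no filter, 12.8% with the stricter filter and 13.1% with DESeq2. At the threshold of 0.1 that share was not counted. The number of subunit genes called lower was 33 with library size only (40.3% of all genes lower) and 19 with limma-voom (18.2%). It was 25 with CD replicate 1 and HSD replicate 4 left out together (16.3%). With 1 library left out it ran from 6 without HSD replicate 1 or 2 (8.47% and 8.68%) to 20 without HSD replicate 4 (10.1%). The share of all genes lower in such fits ran from 8.34% without CD replicate 3 to 15.4% without CD replicate 1. The number called higher was 0 in each of these. On the TMM scale CD replicate 1 and HSD replicate 4 stood apart in the subunit genes themselves, so their joint omission narrows the spread within diets. The members' median of −0.14 became −0.30 with library size only and ran from −0.18 to −0.09 when 1 library was left out. With 1 library left out the log2 fold change of Prosbeta1 ran from −0.0764 to 0.0284, above 0 without CD replicate 1. Signs also changed for genes that did not pass in the report: PI31 (−0.12 with library size only, −0.00056 with limma-voom, −0.0104 with both libraries named above left out, −0.0172 to 0.0644 with 1 left out), Sem1 (−0.116 to 0.0074) and mia (−0.071 to 0.0125) with 1 left out, REG, Pngl and sip3 (−0.13, −0.0846 and −0.0872 with library size only) and Ubi-p5E (0.051 with the replicate block, 0.0583 in those 6 libraries without it). The cause was not tested.

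A fit with a replicate block, on the 6 libraries whose numbers both diets share, called 0 members and 3.16% of all genes lower. At an unadjusted edgeR p under 0.05 it had 5 members lower, and the share of all genes was not counted there. The same 6 libraries without the block term, an alternative chosen after seeing the data, gave 4 members and 5.66% of all genes lower. The median log2 fold change of the ubiquitous subunits was −0.14 with and without the block. The labels give replicate numbers but do not state a pairing. Deviations of same-numbered libraries correlated at −0.18, −0.09 and −0.21, and 0 of 3 CD libraries correlated best with its own number. With 3 pairs, and deviations taken from means of 4 libraries, this cannot exclude a pairing. The ubiquitous subunits had at least 2414 counts in each library, and 4 paralogs did not pass the filter on low counts.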
